A study of Mus musculus with 50 samples.

Results

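The microglia marker genes C1qa, Csf1r, Cx3cr1, P2ry12, Tmem119, Aif1, Trem2, Tyrobp and Ctss, 9 in all, were followed in mouse frontal cortex across 5 ages and 2 genotypes. They were chosen by name, as genes widely used to recognise microglia, and the rule uses no measured value. Earlier results of these data were known when they were chosen. All 9 were among the 55487 genes in the files and all 9 were among the 16330 protein-coding genes that had enough counts to be tested. RNA came from frontal cortex at embryonic ages E14 and E18 and postnatal ages P7, P35 and P70 (days 14 and 18 of gestation and 7, 35 and 70 after birth), from 5 wild-type mice and 5 mice heterozygous for a knockout of Setd1a (Setd1a+/-) at each age, which gave 50 libraries in 10 groups. Setd1a encodes a histone H3 lysine 4 methyltransferase. The labels give the strain as C57BL/6NTac, whereas the study's methods describe a mixed background of C57BL/6NTac and C57BL/6J, a loss-of-function allele from a knockout-first design, male subjects, and embryonic ages slightly later than those in the labels.

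Microglia are the resident macrophages of the brain. They enter the embryonic brain as progenitors from the yolk sac, multiply there, and take on their adult state after birth, when they prune synapses, clear debris and survey the tissue with moving processes. Their survival depends on signalling through the receptor encoded by Csf1r, and neurons hold contact with them through the ligand of Cx3cr1. In whole tissue, more microglia and more RNA per microglial cell cannot be told apart.

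Total counts were 35507165 to 43907318 per library. Xist, the transcript of the inactive X chromosome, had at most 27 counts in 48 libraries, but 60159 in the fifth wild-type library of E14 and 55644 in the second wild-type one of E18, although the study's methods describe males. The summed counts of Y-linked genes were 0 and 11 in these 2 libraries and at least 4711 in each other one, the pattern of females. Both are wild-type, so sex was not balanced between the genotypes at E14 and E18. Wild-type replicate 2 at P7 had a summed level of choroid plexus markers of 636 CPM (counts scaled to the size of the library) against at most 6.79 CPM in the other P7 libraries, while its summed level of the 9 microglia markers, 116 CPM, lay within the range of 105 to 122 CPM of its group. In the same library cortex markers summed to 389 CPM against 860 to 942 CPM in the rest of its group, oligodendrocyte markers to 1183 CPM against 121 to 171 CPM, and hindbrain Hox genes to 12.9 CPM against at most 0.243 CPM. Without it the counts of markers called were the same at every step and for genotype. Setd1a itself was not lower in the libraries labelled Setd1a+/-. Its log2 fold change over all ages was 0.10 ± 0.03 (SE; adjusted p = 0.00679 by edgeR's quasi-likelihood test), but its count is a sum over all exons and 52.3% of its exonic bases lie in other annotated genes too, so it is no check of the genotype labels, and every genotype direction below rests on those labels.

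P2ry12 and Ctss are shown with the sequence next to their transcription start because they made the steepest steps with age, P2ry12 from E18 to P7 and Ctss from P7 to P35. The RefSeq promoter table, of build GRCm38.p6, held a window for 5 of the 9 genes (Cx3cr1, P2ry12, Aif1, Trem2 and Ctss). Each line below gives the 120 bases upstream of the RefSeq start, 5′ to 3′ on the gene's strand, on chromosome 3, with the matched motif in capitals. For P2ry12 that start lies further upstream than the 5′ end of the Ensembl gene given with its values. The P2ry12 stretch is chr3:59262986-59263105 on the minus strand and the Ctss stretch is chr3:95526666-95526785 on the plus strand.
P2ry12: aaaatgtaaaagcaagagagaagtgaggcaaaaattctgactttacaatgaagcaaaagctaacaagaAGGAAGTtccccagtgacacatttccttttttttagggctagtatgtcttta
Ctss: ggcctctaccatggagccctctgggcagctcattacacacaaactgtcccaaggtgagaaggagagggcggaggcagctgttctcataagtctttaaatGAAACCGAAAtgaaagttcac
The letters AGGAAGT, the core bound by ETS factors such as PU.1, the master regulator of myeloid cells, were searched on both strands of the 250 bases upstream of each start. They stood in the P2ry12 window, 52 to 46 bases upstream, and in 7.69% of all 32851 windows. The letters GAAANNGAAA, as in sites of interferon regulatory factors such as IRF8, stood in the Ctss window as GAAACCGAAA, 21 to 12 bases upstream, in the Aif1 window as GAAAAAGAAA, and in 2.98% of all windows. The 2 motifs share no position in these windows, and a match in letters is not evidence that a factor binds there.

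All 9 markers were at their lowest before birth and rose to a plateau by P35. Their summed level ran from 41.9 to 90.2 CPM, with a median of 52.1, over the 10 libraries of E14, and from 45.9 to 89.5 CPM, with a median of 56.7, at E18. It ran from 102.4 to 123 CPM at P7, from 264 to 311 CPM at P35 and from 284 to 311 CPM at P70, so that the ranges of E18, P7 and P35 did not overlap while those of P35 and P70 did. With p-values from edgeR (quasi-likelihood) adjusted by Benjamini-Hochberg over all 16330 genes, 4 of 9 were higher at E18 than at E14, 9 of 9 higher at P7 than at E18, 9 of 9 higher at P35 than at P7, and 0 of 9 different at P70 from P35. Most of the transcriptome moved with age as well: of all genes tested, 36% were higher and 37.4% lower at E18 than at E14, 37.9% higher and 38.2% lower at P7 than at E18, and 38% higher and 38.1% lower at P35 than at P7. Between P35 and P70, 9.74% differed, 5.0% higher and 4.75% lower. The median log2 fold change of the 9 markers at the 4 steps was 0.24, 0.89, 1.44 and 0.18, beside medians over all genes of −0.002, 0.0, −0.001 and 0.001.

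**Figure D1:**
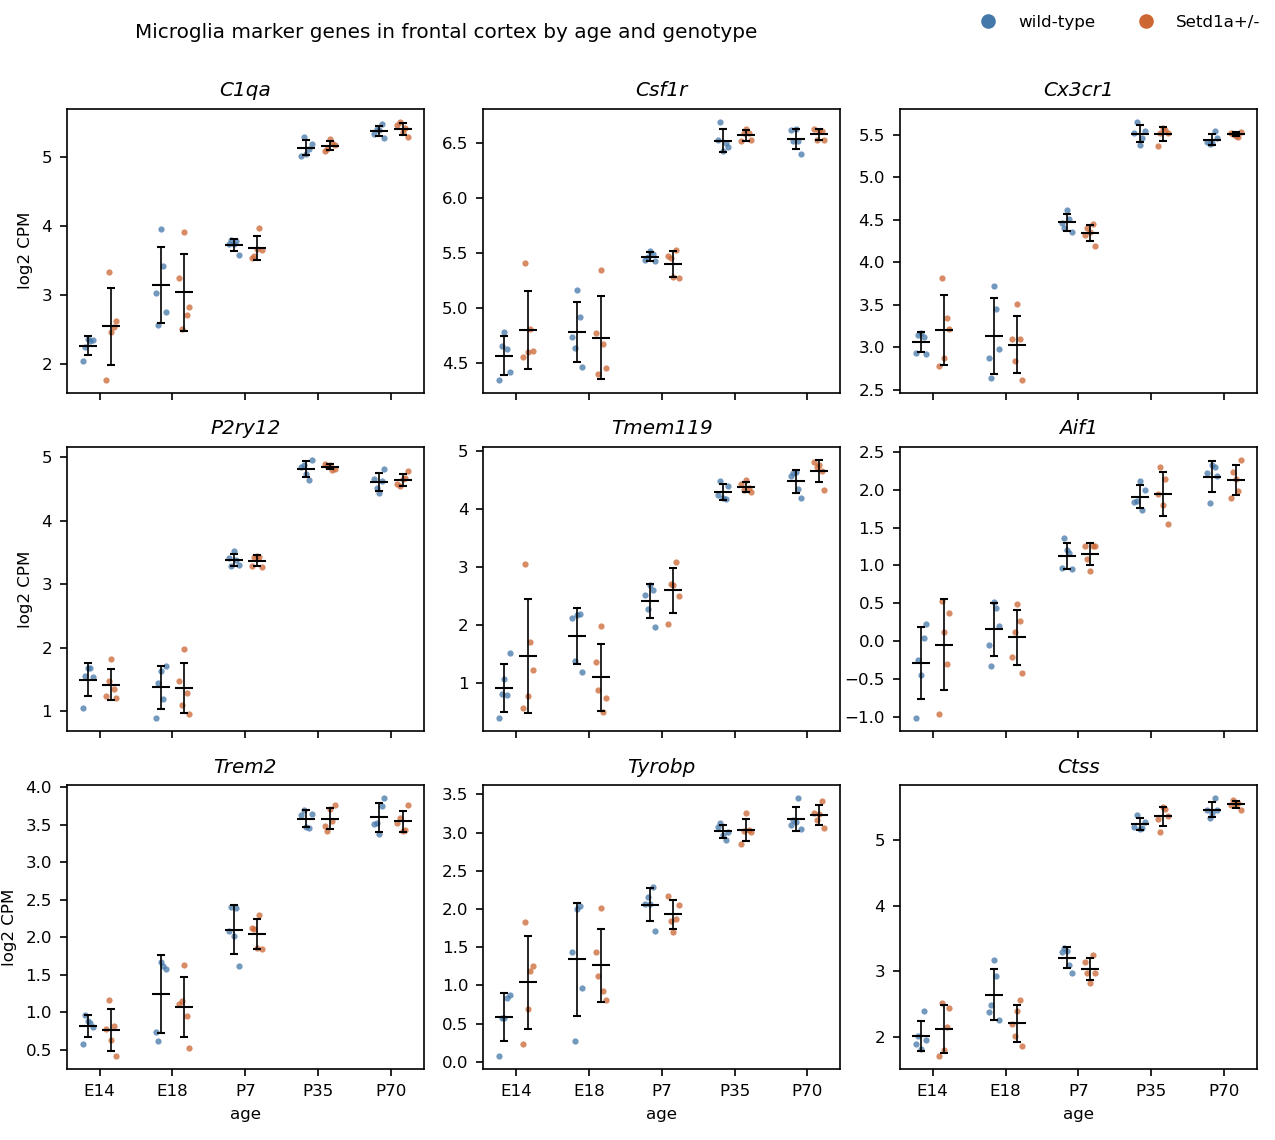
Each panel plots log2 CPM of 1 marker (vertical axis) against age (horizontal axis), with 1 point per library, blue for wild-type and orange for Setd1a+/-, and a black bar with whiskers for the mean and SD of 5 libraries. The genotypes overlap in every panel, the E14 and E18 libraries spread more widely than the postnatal ones in every panel but that of Trem2, whose E14 libraries spread less than those of P7, and all 10 libraries at P35 lie above all 10 at P7.

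Among the surface receptors, P2ry12 made its first large step by P7 and Cx3cr1 and Csf1r rose with it. P2ry12 (ENSMUSG00000036353, chromosome 3, 59216272 to 59262871, GRCm38), the ADP receptor that steers microglial processes to damage, lay between 2.03 and 3.48 CPM at E14 (median 2.78) and between 1.80 and 3.87 CPM at E18 (median 2.53). At P7 its 10 libraries lay between 9.58 and 11.5 CPM (median 10.5), above every embryonic library. At P35 they lay between 25 and 31.1 CPM (median 28.9) and at P70 between 21.6 and 28.1 CPM (median 24.8). The step from E18 to P7 was 1.99 ± 0.09 on the log2 scale (SE, adjusted p = 3.63e-23), a 3.98-fold rise and the largest among the 9 markers at that step. P2ry12 did not differ between E14 and E18 (log2 fold change −0.07, 95% interval −0.27 to 0.12, adjusted p = 0.499). Its log2 fold change from P35 to P70 was −0.21 ± 0.08 (SE), which missed the threshold in edgeR (adjusted p = 0.112) and passed it in DESeq2 (adjusted p = 0.0348) and limma-voom (adjusted p = 0.00297).

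Cx3cr1 (ENSMUSG00000052336, chromosome 9, 119901616 to 120069879), the receptor for the neuronal chemokine fractalkine, lay between 6.81 and 14 CPM at E14 (median 8.74) and between 6.09 and 13.2 CPM at E18 (median 8.15). It reached 18.3 to 24.5 CPM at P7 (median 21.1), 41.3 to 50.2 CPM at P35 (median 45.9) and 41.8 to 46.6 CPM at P70 (median 44.6). The E18 and P7 libraries did not overlap, and neither did those of P7 and P35. Its steps were 1.29 ± 0.10 (SE, adjusted p = 1.58e-15) from E18 to P7 and 1.10 from P7 to P35, while the difference between E14 and E18 was −0.03 (95% interval −0.24 to 0.17).

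Csf1r (ENSMUSG00000024621, chromosome 18, 61100598 to 61132149), the receptor for the growth factors CSF1 and IL-34, had the most counts of the 9 genes. It lay between 20.4 and 42.4 CPM at E14 (median 24.6), 21.2 and 40.7 CPM at E18 (median 26.1), and 38.6 and 46.2 CPM at P7 (median 44). At P35 it lay between 85.9 and 103 CPM (median 91.9) and at P70 between 84.4 and 98.8 CPM (median 94.6). Csf1r did not pass from E14 to E18 (0.08, adjusted p = 0.409) but did so in the wild-type libraries alone (0.23, adjusted p = 0.0418) and without Setd1a+/- replicate 2 at E14 (0.18, adjusted p = 0.0439). The highest E14 and E18 libraries overlapped those of P7, although the step from E18 to P7 passed the test at 0.65 ± 0.09 (SE, adjusted p = 1.53e-08). Csf1r rose least of the 9 from E14 to P70, by 1.85 ± 0.09 (SE), a 3.61-fold difference. Of its exonic bases, 15.1% also lie in Hmgxb3 on the opposite strand, and the counts do not use strand, so some of its counts may belong to that gene.

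Tmem119 (ENSMUSG00000054675, chromosome 5, 113793729 to 113800516), a membrane protein that separates microglia from most other macrophages in the adult brain, varied most between libraries at E14. Its E14 libraries ran from 1.26 to 8.19 CPM with a median of 1.87, and its E18 libraries from 1.36 to 4.50 CPM with a median of 2.53. It ran from 3.87 to 8.43 CPM at P7 (median 5.85), from 18 to 22.5 CPM at P35 (median 20.3) and from 18.2 to 27.8 CPM at P70 (median 24.7). Its 2 steps to the plateau were 1.02 ± 0.20 (SE, adjusted p = 1.69e-05) from E18 to P7 and 1.81 ± 0.19 (SE, adjusted p = 1.63e-11) from P7 to P35. The step from E14 to E18 was 0.16 ± 0.21 (SE, adjusted p = 0.496) and turned on 1 library. Without Setd1a+/- replicate 2 at E14 it was 0.48 (adjusted p = 0.0105), and in the wild-type libraries alone it was 0.92 ± 0.20 (SE, adjusted p = 0.000466).

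Among the signalling partners at the membrane, Trem2 (ENSMUSG00000023992, chromosome 17, 48346401 to 48354147) encodes a receptor for lipids and lipoproteins, and Tyrobp (ENSMUSG00000030579, chromosome 7, 30413760 to 30417585) encodes DAP12, the adaptor through which Trem2 signals. Trem2 ran from 1.28 to 2.20 CPM at E14 (median 1.71), 1.38 to 3.13 at E18 (median 2.14), 3.01 to 5.22 at P7 (median 4.23), 10.7 to 13.5 at P35 (median 12) and 10.4 to 14.4 CPM at P70 (median 11.5). Tyrobp ran from 0.998 to 3.51 CPM at E14 (median 1.64), 1.15 to 4.04 at E18 (median 2.39), 3.20 to 4.83 at P7 (median 4.11), 7.14 to 9.52 at P35 (median 8.04) and 8.18 to 10.9 CPM at P70 (median 8.94). Both rose at each of the first 3 steps, Trem2 by 0.42 ± 0.13, 0.89 ± 0.12 and 1.5 ± 0.12 and Tyrobp by 0.54 ± 0.17, 0.61 ± 0.16 and 1.03 (log2 fold changes, the SE after each ±), with adjusted p of 0.00276 for Trem2 and 0.00363 for Tyrobp at the first step. Per kilobase of summed exons the adaptor was at the higher level at P70, with 13.8 ± 1.37 RPKM (CPM per kilobase of exon, SD, n = 10). Trem2 had 2.41 ± 0.28 RPKM. That order rests on the summed exons, 667 bases for Tyrobp and 4946 for Trem2, which can exceed the transcripts in use. By CPM the order was the reverse, with P70 means of 11.9 for Trem2 and 9.21 for Tyrobp.

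C1qa (ENSMUSG00000036887, chromosome 4, 136895917 to 136898803) encodes a chain of complement C1q, which tags synapses and debris for removal. It rose from 3.36 to 10.1 CPM at E14 (median 5.06) to 5.63 to 15.5 CPM at E18 (median 7.56), 11.6 to 15.6 CPM at P7 (median 13), 32.3 to 39.1 CPM at P35 (median 35.2) and 38.6 to 45.4 CPM at P70 (median 42). Its step from E14 to E18, 0.73 ± 0.14 (SE, adjusted p = 1.43e-05), was the largest of the 9 at that step, and its step from E18 to P7, 0.53 ± 0.14 (SE, adjusted p = 0.000673), the smallest. The E18 and P7 libraries of C1qa overlapped, and those of P7 and P35 did not.

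Ctss (ENSMUSG00000038642, chromosome 3, 95526786 to 95556403), the lysosomal protease cathepsin S, changed most between P7 and P35. Its libraries lay between 3.22 and 5.69 CPM at E14 (median 3.91), 3.59 and 8.97 CPM at E18 (median 5.20) and 7.05 and 10.2 CPM at P7 (median 8.66). They then lay between 34.9 and 45.5 CPM at P35 (median 39.5) and between 40.2 and 49.8 CPM at P70 (median 45.1). The step from P7 to P35 was 2.18 (95% interval 1.99 to 2.38, adjusted p = 1.94e-24), above the upper limit of 1.09 that the interval of Aif1 allowed for the same step. From E14 to P70 the difference was 3.42 ± 0.10 (SE), a 10.7-fold rise and the largest of the 9.

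Aif1 (ENSMUSG00000024397, chromosome 17, 35170991 to 35176068), whose product IBA1 bundles actin and is the standard stain for microglia, had few counts throughout. It ran from 0.441 to 1.39 CPM at E14 (median 0.880), 0.692 to 1.38 at E18 (median 1.07), 1.84 to 2.53 at P7 (median 2.21), 2.87 to 4.86 at P35 (median 3.69) and 3.50 to 5.21 CPM at P70 (median 4.56). The step from E18 to P7 was 1.05 ± 0.15 (SE, adjusted p = 1.82e-08) with no overlap between the libraries, and the step from P7 to P35, 0.81 (adjusted p = 1.29e-06), was the smallest of the 9. Aif1 did not pass the test between E14 and E18 (log2 fold change 0.24, 95% interval −0.07 to 0.54), but did so without the 2 libraries with Xist counts (0.37, adjusted p = 0.0313).

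Ranked by level, every marker had P7 above both embryonic ages and below both adult ages, and each of these differences passed the test. Against P7, all 9 were lower at E14 and higher at P70, where 43.3% of all genes were higher at P7 than at E14 and 38.9% higher at P70 than at P7. Between E14 and E18, 0 of 9 had all E18 libraries above all E14 libraries, as 13.3% of all genes did. The order of P35 and P70 could not be told apart for any of the 9, with adjusted p from 0.112 to 0.986 in edgeR, where 2 of 9 had an unadjusted p under 0.05, as did 23.9% of all genes. In DESeq2, P2ry12 alone passed at this step, lower at P70 as were 5.78% of all genes. In limma-voom 3 of 9 passed, with C1qa and Ctss higher (5.43% of all genes) and P2ry12 lower (4.7% of all genes). From E14 to E18, Csf1r, Cx3cr1, P2ry12, Tmem119 and Aif1 did not pass in edgeR with all libraries. Of these, Csf1r and Tmem119 passed, higher at E18, in the wild-type libraries alone and without Setd1a+/- replicate 2 at E14, and Aif1 without the 2 Xist libraries. Between E18 and P7, 3 of 9 markers (Cx3cr1, P2ry12 and Aif1) had all P7 libraries above all E18 libraries, as did 18% of all genes, and between P7 and P35 all 9 had every P35 library above every P7 library, as did 23.9% of all genes.

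The markers did not approach their adult level in step. As a share of its own P70 mean, the P7 mean was 48.9% for Aif1, 47.8% for Cx3cr1, 46.0% for Csf1r, 43% for Tyrobp and 41.8% for P2ry12, but 35.4% for Trem2, 31.1% for C1qa, 24.2% for Tmem119 and 19.2% for Ctss. At E14 the shares ran from 9.32% for Ctss to 27.8% for Csf1r. At P35 they ran from 84.5% for C1qa to 115% for P2ry12. P2ry12 moved from the lowest share at E18, 10.5%, to the highest at P35.

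**Figure D2:**
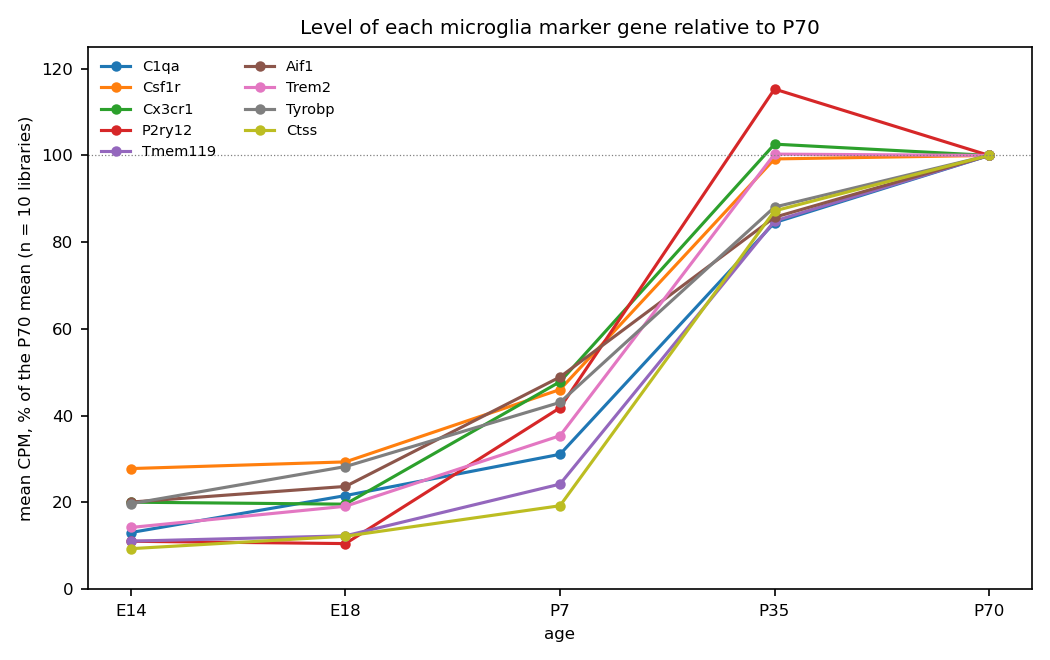
The mean CPM of each marker over the 10 libraries of an age is drawn as a percentage of its mean at P70 (vertical axis, linear and starting at 0) against age (horizontal axis), with 1 line per gene. At P7 the 9 lines span 19.2% for Ctss to 48.9% for Aif1, and from P35 on all lie at or above 84.5%.

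Per kilobase of the summed annotated exons of a gene, which can exceed the length of the transcripts in use, the levels at P70 fell in the order C1qa with 40.3 ± 2.21 RPKM (SD, n = 10), Ctss with 33.4 ± 2.15, Csf1r with 16.3 ± 0.81, Tyrobp with 13.8 ± 1.37, Tmem119 with 10.3 ± 1.4, Cx3cr1 with 9.86 ± 0.38, P2ry12 with 9.72 ± 0.78, Aif1 with 2.89 ± 0.37 and Trem2 with 2.41 ± 0.28 RPKM. The values of Tmem119, Cx3cr1 and P2ry12 overlapped within their SDs, as did those of Aif1 and Trem2. At E14, C1qa with 5.25 ± 1.73 RPKM and Csf1r with 4.53 ± 1.07 RPKM led and Trem2 with 0.34 ± 0.05 RPKM was lowest.

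The other genes listed for homeostatic microglia mostly rose at the steps from E18 to P7 and from P7 to P35. Of 12 other genes of homeostatic microglia, 5 rose and 2 fell from E14 to E18, 11 rose and 1 fell from E18 to P7, 10 rose and 0 fell from P7 to P35, and 0 passed the test from P35 to P70. Their median log2 fold changes were 0.15, 0.82, 0.97 and 0.03. Gpr34, a lysophospholipid receptor, rose by 1.74 ± 0.09 (SE) and Siglech, a sialic acid binding lectin, by 1.91 ± 0.13 (SE) from E18 to P7. Selplg, the ligand of selectins, rose by 2.99 ± 0.10 (SE) from P7 to P35. Of the 2 that fell first, Slc2a5, a hexose transporter, was at −0.29 (adjusted p = 0.0299) and lost its call in 7 of the 50 fits without 1 library and in the fits without the 2 Xist libraries (−0.25, adjusted p = 0.0773) and with all annotated genes (−0.26, adjusted p = 0.0502). Sall1, a transcription factor of microglia that neural progenitors also express, fell by 1.04 from E14 to E18 and by 1.11 from E18 to P7.

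Of 19 genes shared by myeloid cells, 6 rose and 1 fell from E14 to E18, 17 rose and 1 fell from E18 to P7, 15 rose and 1 fell from P7 to P35, and 0 passed from P35 to P70. In the wild-type libraries alone 10 of the 19 rose from E14 to E18. Itgam, which encodes the integrin CD11b, rose by 1.47 ± 0.11 (SE) from E18 to P7 and by 1.79 (SE 0.11) from P7 to P35, and Mpeg1, a pore-forming protein of macrophages, rose by 0.74 ± 0.07 and 1.00 ± 0.07 (SE). Cd68, a lysosomal glycoprotein, fell by 0.38 from E18 to P7. It did not pass at that step in the wild-type libraries alone (log2 fold change −0.19, adjusted p = 0.159).

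Genes known from early postnatal or activated microglia moved in both directions after P7. Of the 14 listed, 12 could be tested, of which 7 rose and 1 fell from E14 to E18, 6 rose and 0 fell from E18 to P7, 3 rose and 4 fell from P7 to P35, and 0 rose and 1 fell from P35 to P70. Apoe, which astrocytes express too, rose by 1.64 (SE 0.14) from E14 to E18 and by 1.96 (SE 0.14) from E18 to P7. Lpl, a lipoprotein lipase, rose by 1.51 ± 0.12 (SE) from E18 to P7 and fell by 1.91 from P7 to P35. Fabp5, a fatty acid carrier that neural progenitors express too, fell by 1.76 from P7 to P35. Fabp5 was also the gene that fell from P35 to P70, by 0.30, and did not pass there in the wild-type libraries alone (−0.27, adjusted p = 0.244).

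Of 12 ligands, partners and downstream genes of the 9 markers, 6 rose and 1 fell at each of the first 2 steps, 8 rose and 1 fell from P7 to P35, and 1 rose and 0 fell from P35 to P70. The gene that fell first, Entpd1, an enzyme that breaks down extracellular ATP, was at −0.43 (adjusted p = 1.6e-05) but did not pass in the wild-type libraries alone (−0.225, adjusted p = 0.0896). At the step from E18 to P7, 2 genes were called lower in each of 3 other fits, the one of the wild-type libraries alone, the one with library size scaling and the one without Setd1a+/- replicate 2 at E14. Cx3cl1, the neuronal ligand of Cx3cr1, rose by 1.71 ± 0.12, 2.70 ± 0.12 and 1.73 ± 0.12 (SE) at the first 3 steps. Cst3, the inhibitor of cathepsins such as Ctss, rose by 0.74 ± 0.05, 1.4 ± 0.05 and 0.97 ± 0.05 (SE) at those steps and by 0.20 ± 0.05 from P35 to P70. Cst3 did not pass at the last step in the wild-type libraries alone (0.185, adjusted p = 0.398). Tgfbr1, a receptor for the cytokine TGF-beta, fell by 1.08 from E18 to P7 and by 0.87 from P7 to P35.

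Macrophages of the meninges and vessels, which share several of the 9 markers, were followed by 9 other genes, which other cells may express too. Of these, 6 rose and 1, Folr2, fell from E14 to E18, 0 rose and 2 fell from E18 to P7, and 1 rose and 4 fell from P7 to P35, with median log2 fold changes of 0.97, −0.52 and −0.55. Folr2 was at −0.57 (adjusted p = 0.0442) and lost its call under 6 alternatives, with −0.38 to −0.57. Cbr2 rose by 4.23 ± 0.49 (SE) and Cd163, a haemoglobin scavenger receptor, by 3.40 ± 0.40 (SE) from E14 to E18. F13a1, a coagulation factor subunit, fell by 1.74 and Pf4, a chemokine, by 1.04 from E18 to P7, although Pf4 did not pass in limma-voom (−0.63, adjusted p = 0.126). Mrc1, the mannose receptor, and Lyve1, a hyaluronan receptor, each fell by 1.57 from P7 to P35. In the wild-type libraries alone 1 of the 9 was called lower at that step, and Lyve1 was not (−1.44, adjusted p = 0.062). Markers of blood leukocytes stayed low, with a summed level of at most 9.09 CPM over 9 genes in any library. Of the 6 that could be tested, 5 rose from P7 to P35, with a median log2 fold change of 1.755, a step at which all 9 microglia markers rose. Markers of other brain cells moved at the same steps. From E18 to P7, 5 of 5 astrocyte markers rose (median log2 fold change 2.36), as did 2 of 4 oligodendrocyte markers, with 1 lower (1.487), and 4 of 7 neuron markers, with 2 lower (1.045). From P7 to P35, 4 of 4 oligodendrocyte markers rose (4.484) and 5 of 7 neuron markers, with 2 lower (0.974), while 1 of 5 astrocyte markers rose and 2 fell (−0.08). The part of leukocytes or of the other cells in the marker levels was not tested.

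**Figure D3:**
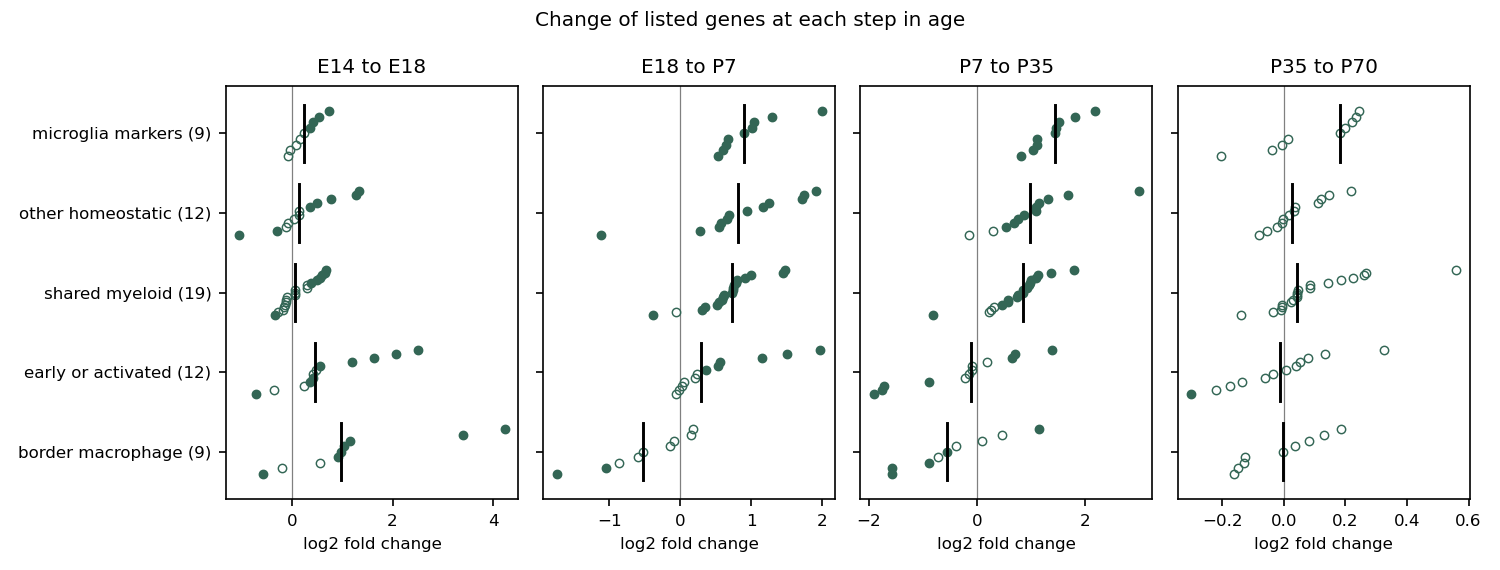
Each panel plots the log2 fold change of single genes (horizontal axis, with its own scale in each panel) at 1 step in age for 5 gene lists, the number tested in brackets, filled circles for genes that passed the test, open circles for those that did not, and a bar for the median of the list. The 9 microglia markers all lie above 0 at the steps from E18 to P7 and from P7 to P35, where the border macrophage list has medians of −0.52 and −0.55.

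No microglia marker passed the test between the genotypes. With age as a covariate, 0 of 9 were called by edgeR's quasi-likelihood test, DESeq2 or limma-voom, and 0 of 9 had an unadjusted p under 0.05 in edgeR, as 14.5% of all genes did, while 4.43% of all genes were called (0.68% higher and 3.75% lower in the libraries labelled Setd1a+/-). The log2 fold changes of the 9 ran from −0.07 for Trem2 to 0.12 for Tmem119, with adjusted p from 0.743 to 0.997, a median of 0.04 and a median over all genes of 0.001. The 95% intervals reached from −0.22 at the lowest to 0.39 at the highest. The narrowest was that of P2ry12, −0.11 to 0.11, and the widest that of Tmem119, −0.15 to 0.39, so differences of these sizes cannot be set aside. With the postnatal libraries alone, an alternative chosen after the embryonic spread was seen, 0 of 9 were called as well, beside 4.07% of all genes, with Tmem119 nearest at 0.15 ± 0.08 (SE, adjusted p = 0.30 by edgeR). Over all ages Tmem119 was at 0.01 without Setd1a+/- replicate 2 at E14.

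**Figure D4:**
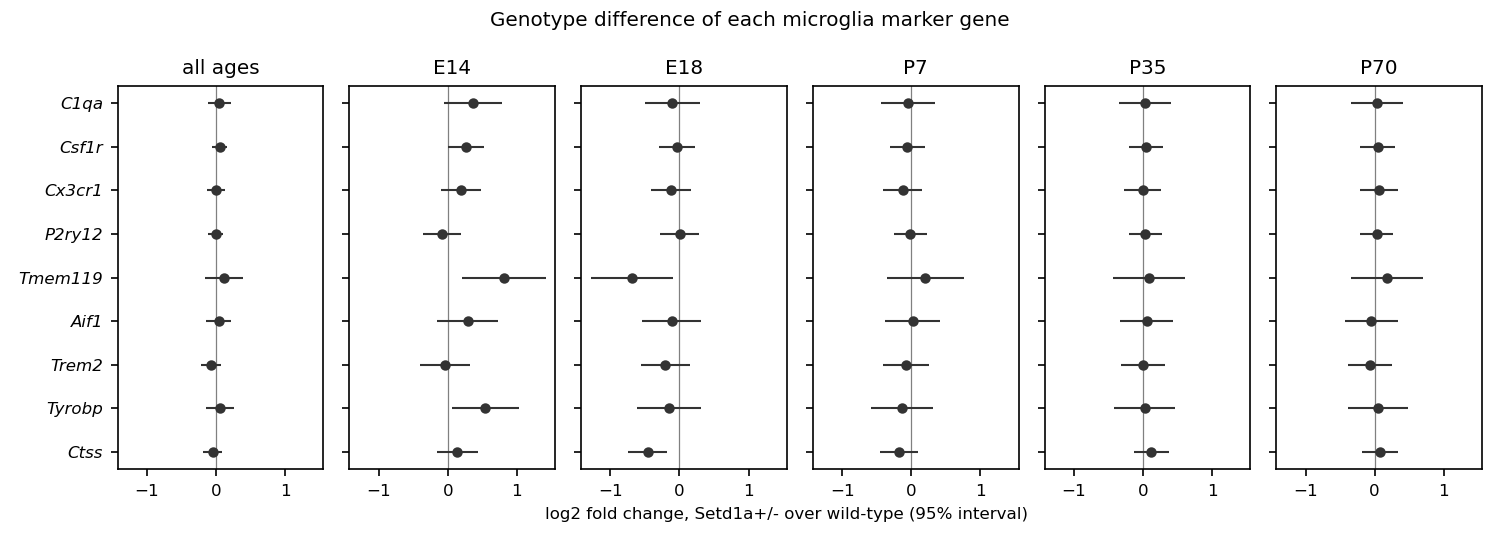
Points give the log2 fold change of each marker in Setd1a+/- over wild-type (horizontal axis, same scale in all panels), over all ages and at each age, with lines for the 95% interval from edgeR. Over all ages the 9 points lie between −0.07 and 0.12, and the intervals at E14 and E18 that leave out 0 belong to Csf1r, Tmem119, Tyrobp and Ctss.

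At single ages, 0 of 9 were called at any age, beside 0.129%, 0.11%, 0.735%, 0.0% and 0.233% of all genes from the youngest age to the oldest, and DESeq2 and limma-voom also called 0 of 9 at each. At an unadjusted p under 0.05, edgeR had 3 of 9 at E14, beside 11.6% of all genes, and 2 of 9 at E18, beside 11.4%. At the postnatal ages it had 0 of 9, beside 8.86% at P7, 3.37% at P35 and 6.55% at P70. No marker had all 5 libraries of one genotype above all 5 of the other at E14, E18, P7, P35 or P70, where 0.784%, 2.22%, 2.23%, 2.25% and 1.79% of all genes did. At P35 and P70 together, the log2 fold changes of the 9 lay between −0.06 and 0.18.

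Tmem119 had the largest fitted differences. At E14 the wild-type libraries held 1.26, 1.71, 2.04, 1.68 and 2.81 CPM and the libraries labelled Setd1a+/- held 1.44, 8.19, 1.66, 3.21 and 2.28 CPM in replicates 1 to 5. Only Setd1a+/- replicate 2 stood far above the rest, and the other values overlapped. The log2 fold change was 0.81 ± 0.30 (SE, adjusted p = 0.204 by edgeR), 0.17 (adjusted p = 1.0) without that library and 0.999 (adjusted p = 0.0573) without the 2 libraries with Xist counts. At E18 the wild-type libraries held 4.31, 2.54, 4.46, 4.50 and 2.22 CPM and the others 2.53, 1.79, 3.87, 1.36 and 1.62 CPM. The 3 highest wild-type libraries were above all Setd1a+/- ones, with a log2 fold change of −0.69 ± 0.29 (SE, adjusted p = 0.347 by edgeR). At that age the median log2 fold change between the genotypes was −0.56 for the endothelial and pericyte list and −0.56 for the meningeal list, with 0 genes called in either. The medians were −1.01 for choroid plexus, −0.51 for erythroid, −0.41 for blood leukocyte and −0.15 for border macrophage markers. Over the 20 embryonic libraries Tmem119 had an r of 0.87 with the blood leukocyte, 0.86 with the border macrophage, 0.82 with the endothelial, 0.79 with the meningeal, 0.51 with the erythroid and 0.09 with the choroid plexus level. The part of these cells in its difference was not tested.

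Ctss had the smallest p at E18. Its wild-type libraries held 5.18, 5.56, 8.97, 7.56 and 4.74 CPM and those labelled Setd1a+/- 4.56, 4.00, 5.23, 5.88 and 3.59 CPM, so the ranges overlapped between 4.74 and 5.88 CPM. The log2 fold change was −0.46 ± 0.14 (SE, adjusted p = 0.171 by edgeR). At E14 it was 0.14 ± 0.15 (SE). After birth it was −0.17 at P7, then 0.12 and 0.08 at the adult ages, with 95% intervals that included 0.

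Tyrobp and Csf1r had unadjusted p under 0.05 at E14 alone. Tyrobp held 0.998, 1.44, 1.44, 1.73 and 1.77 CPM in wild-type and 1.12, 3.51, 1.56, 2.22 and 2.33 CPM in the libraries labelled Setd1a+/-, a log2 fold change of 0.54 ± 0.24 (SE, adjusted p = 0.328 by edgeR) that was 0.30 without Setd1a+/- replicate 2. Csf1r held 20.4, 25.2, 27.4, 24.7 and 21.4 CPM in wild-type and 23.6, 42.4, 24.3, 28 and 24.5 CPM in the others, a log2 fold change of 0.26 ± 0.13 (SE, adjusted p = 0.424 by edgeR) that was 0.07 without that library. In both genes replicate 2 was the highest of the 10 libraries. At E14 the median log2 fold change between the genotypes was 1.78 for the meningeal, 1.11 for the border macrophage, 0.70 for the endothelial, 0.53 for the erythroid and 0.46 for the blood leukocyte list, with 0 genes called in any of them. These medians include Setd1a+/- replicate 2. It was the highest of the 10 libraries in the summed level of the first 3 lists, with 1529, 187 and 942 CPM. The part of these cells in the differences of Tmem119, Tyrobp and Csf1r was not tested.

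The joint test of age by genotype, which asks whether the genotype difference changes with age, called 0 of 9 markers and 0.0% of all genes in edgeR, and 0 of 9 in DESeq2 and limma-voom. In edgeR, 2 of 9 had an unadjusted p under 0.05, beside 6.72% of all genes, Ctss with an adjusted p of 0.584 and Tmem119 with one of 0.588. The test had limited reach. On simulated data it found 74% of randomly drawn genes changed by a log2 fold of 1 at E18 alone and 17% of those changed by 0.3.

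Among related genes, 1 differed between the genotypes. Of the 12 other homeostatic genes, Siglech alone was called over all ages, beside 4.43% of all genes. It was higher in the libraries labelled Setd1a+/- by 0.28 ± 0.08 (SE, adjusted p = 0.0242 by edgeR). Its mean was higher in them at all 5 ages, with 1.38 against 1.26 CPM at E14, 1.44 against 1.04 at E18, 5.16 against 4.12 at P7, 16.3 against 13.5 at P35 and 15.0 against 13.1 CPM at P70, and the ranges of the genotypes overlapped at each age. Siglech was at 0.245 (SE 0.075, adjusted p = 0.0522) without the 2 libraries with Xist counts and at 0.26 (adjusted p = 0.00723) in the postnatal libraries alone. Of the 19 shared myeloid genes, 12 early or activated genes, 12 ligands and partners and 9 border macrophage genes, 0 were called over all ages or at any single age. In the postnatal libraries alone 1 of them was called, Apoe, beside 4.07% of all genes. Apoe was at −0.20 ± 0.04 there (SE, adjusted p = 0.00102 by edgeR), against −0.08 (adjusted p = 0.784) over all ages. The difference of Siglech from the 9 markers was not tested.

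Within groups, the markers moved up and down together in the embryonic libraries and less so in the postnatal ones, a difference that was not tested. After the mean of each of the 10 groups was taken away, Pearson's r between 2 markers over the 20 libraries of E14 and E18 had a median of 0.65 over the 36 pairs and ran from 0.21 to 0.90. Over the 30 libraries of P7, P35 and P70 the median was 0.32, with a range of −0.13 to 0.68. Over the 10 libraries of a single age, the median was 0.655 for E14 and 0.677 for E18, against 0.403 for P7, 0.525 for P35 and 0.189 for P70, where 20 of 36 pairs were above 0. In each library the 9 values share one dissection, RNA sample and depth. C1qa and Tyrobp, with 0.90, were the closest pair before birth. P2ry12 was the least tied to the others before birth, with a median r of 0.43 to the other 8, and Aif1, the gene with the fewest counts at P70, after birth, with 0.07. The spread of the summed level within a group, as a coefficient of variation averaged over the genotypes, was 20.1% at E14 and 27.2% at E18 against 6.33%, 5.19% and 2.49% at the 3 postnatal ages in turn. Without Setd1a+/- replicate 2 it was 11.1% at E14.

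Embryonic libraries with high microglia markers also had high border macrophage markers, and in part high markers of meninges and vessels. Setd1a+/- replicate 2 at E14 had a summed microglia level of 90.2 CPM, against 41.9 to 58.7 CPM in the other E14 libraries, beside 187 CPM of the 9 border macrophage markers, 1529 CPM of the 5 meningeal fibroblast markers and 942 CPM of the 8 endothelial and pericyte markers. Those lists ran from 29.6 to 93.5, from 11.3 to 509 and from 197 to 356 CPM in the other E14 libraries. Stab1 weighs most in the border macrophage sum, with means of 47.7 CPM at E14 and 40.3 CPM at E18. The next gene of that list, Mrc1, had 8.59 and 15.8 CPM. At E18, wild-type replicates 3 and 4 and Setd1a+/- replicate 3 were highest in microglia markers with 89.5, 74.5 and 88.5 CPM, and held 146, 117 and 160 CPM of border macrophage markers, the 3 highest of that age. Their endothelial and pericyte markers stood at 611, 538 and 284 CPM, the last near the middle of its group, and the highest meningeal level of E18, 748 CPM, was in wild-type replicate 1, with 58.4 CPM of microglia markers. Over the 20 embryonic libraries, the mean deviation of the 9 markers had an r of 0.82 with that of the border macrophage list (0.78 without Setd1a+/- replicate 2 at E14), 0.66 with the meningeal (0.57 without it) and 0.72 with the endothelial list (0.60 without it). It had an r of 0.59 with erythroid markers (0.67 without it) and of 0.28 with choroid plexus markers (0.67 without it). Over the 30 postnatal libraries the first 3 of these were 0.31, 0.38 and 0.34. Single markers differed over the 20 embryonic libraries. With the same 3 lists P2ry12 had an r of 0.21, 0.15 and 0.009 and Trem2 of 0.34, 0.16 and 0.435, while C1qa had 0.88, 0.62 and 0.68. The part of such cells in the embryonic levels was not tested.

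**Figure D5:**
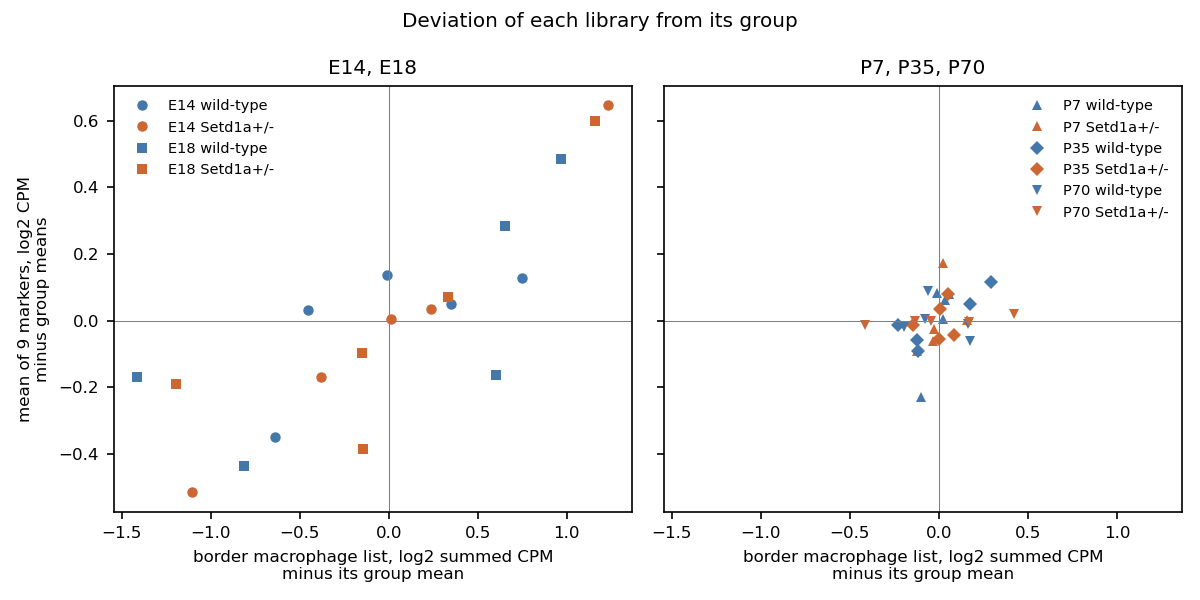
Each point is 1 library, placed by the summed border macrophage level (horizontal axis, log2) and by the mean log2 CPM of the 9 microglia markers (vertical axis), both as deviations from the mean of its age and genotype group. The 20 embryonic libraries, left, spread along the diagonal (r = 0.82) and the 30 postnatal libraries, right, gather near 0 (r = 0.31).

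The genes most like the 9 markers within groups, by Pearson's r with the mean of the standardised markers over 50 libraries, were C1qc with 0.91 and C1qb with 0.89, the remaining chains of C1q, Adgre1 with 0.87, which encodes the macrophage antigen F4/80, Gas6 with 0.86, a ligand of TAM receptors, and Fcrls with 0.85, an Fc receptor-like gene of microglia. Of the 16321 tested genes outside the 9, 16 had an r over 0.8. Within groups the mean log2 CPM of the markers had an SD of 0.324 over the 20 embryonic libraries and 0.075 over the 30 postnatal ones. The embryonic libraries therefore weigh most in these r values. By course over the 10 group means, Rgl1, Rreb1, Arhgef6, Vsir and Gm49369 were closest, each with an r of 0.998. That likeness is widely shared, since 4924 genes had an r over 0.8 on those 10 points.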

How the data were processed

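RNA from 50 frontal cortex libraries (5 per age and genotype) was analysed. Per the labels and the study's methods, the authors captured polyadenylated RNA, sequenced it in 1 batch, trimmed the reads (Trimmomatic) and aligned them to GRCm38 (STAR). They assigned fragments to Ensembl 102 genes with featureCounts 1.4.6-p2, without strand, counting a fragment that overlaps several genes for each. The deposited values are raw counts with no normalization. GENCODE vM21 named 55141 of 55487 genes. The 9 members and all gene lists were chosen with earlier results of these data known.

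Protein-coding genes were filtered by filterByExpr, which left 16330. TMM factors and the quasi-likelihood test came from edgeR 4.0.16 in R 4.3.3. The genotype effect had age as a covariate, and the interaction was a joint test. Differences at and between ages came from 1 fit of the 10 groups, with Benjamini-Hochberg adjustment over all genes and a threshold of 0.05. DESeq2 1.42.0, limma-voom (limma 3.58.1), other scalings, other filters, RNA integrity as a covariate and left-out libraries were alternatives. Log2 CPM used a prior count of 2, and RPKM the exon length in the files. Named genes were the 9 members, up to 2 genes per list and direction at a comparison by smallest adjusted p, the 5 most alike by each measure, Setd1a, and Stab1 for its level alone. Some genes that this rule names are not reported here. On simulated data the genotype test recovered 99% of genes changed by a log2 fold of 1 and 71% of those changed by 0.3. The changed genes were drawn at random from all tested genes and their counts were independent. These shares therefore do not measure the reach of the test for the 9 markers. P-values measure the spread between mice. Some mice may share a litter, since the study's methods mention littermates, and litter was not modelled. Figures were drawn with matplotlib 3.10.9.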

Additional observations from a re-analysis of the deposited data

Results flagged for a closer look

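P2ry12 in wild-type replicate 1 at E14 stood apart from its group, with a log2 CPM of 1.06 (69 counts) against 1.53 to 1.68 in the other 4 libraries. Its gap to the nearest library was 0.763 of the whole range of the group, above the critical value for 5 samples. The same library had the lowest summed level of the 9 microglia markers at E14. Of the 90 groups of 5 that were checked this was the 1 found, and chance alone singles out about 1 group in 20.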

How the results depend on the processing

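The counts of markers called at the first 3 steps in age stayed within 1.5 times, and those for genotype and for the interaction stayed at 0, under every alternative run. The exceptions lay at the step from P35 to P70, where 0 markers were called in edgeR. DESeq2 called 1 lower, and limma-voom called 2 higher and 1 lower. The cause was not tested. Leaving out each library in turn gave 4 to 6 markers higher from E14 to E18, 9 at each of the next 2 steps, and 0 for genotype and interaction in each of the 50 fits. With 10 CPM in 5 libraries as the filter, 7 of 9 markers were kept. A replicate block, which treats same-numbered mice as pairs, gave 4 markers higher from E14 to E18, 9 at each of the next 2 steps and 0 in all genotype comparisons. The numbers name no shared litter or day, and same-numbered libraries correlated from −0.20 to 0.46, with 10 of 25 closest to their own number. No called value of a named gene changed sign. Folr2, called lower from E14 to E18, lost its call in 11 of the 50 fits without 1 library and with library size scaling, any count, all annotated genes, wild-type libraries only, and without the Xist libraries or Setd1a+/- replicate 2 at E14. Scaling by library size alone moved group medians of all genes by −0.08 to 0.09 on the log2 scale. Aif1 had the fewest counts, 15 in its lowest library.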
